A study of Homo sapiens with 3 samples.

Results

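Of the 36817 gene identifiers counted in a DDX6 eCLIP experiment, 10 encode the Lsm ring that works with DDX6 (LSM1 to LSM7), the 5' to 3' exonuclease XRN1 and the cytoplasmic poly(A)-binding proteins PABPC1 and PABPC4. The genes were taken by symbol from the tables of reads per transcript region and from the annotated peak lists, and all 10 were found in both. The experiment used MOLM-13, a human acute myeloid leukaemia cell line. In eCLIP, RNA is fixed to protein with ultraviolet light, cut with RNase I, pulled down with an antibody and sequenced. There were 2 libraries from the immunoprecipitation (IP) of DDX6, and a single input library for which the labels list no antibody. All came from the same line in the same medium, and the labels name no genetic change or drug. The labels do not say whether the IP libraries came from separate cultures, so the spread behind each p-value may be technical.

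Decay of most cytoplasmic mRNAs begins with shortening of the poly(A) tail, which cytoplasmic poly(A)-binding proteins coat and protect. The Lsm1-7 ring then binds the shortened 3' end together with PATL1 and helps the decapping enzyme DCP2 remove the cap, and XRN1 degrades the decapped body from its 5' end. DDX6 is an RNA helicase of this machinery that represses translation, promotes decapping and is required to form P-bodies, cytoplasmic granules in which ring subunits and XRN1 are also found. The question here is how far the mRNAs that encode these proteins were themselves recovered with DDX6.

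Counted reads numbered 4643494 and 1244213 in DDX6 IP replicates 1 and 2, against 7807540 in the input. Exonic reads made up 67.6% and 62.6% of these in the DDX6 IP and 30.7% in the input. Levels below are exonic reads in CPM, that is scaled to a common library size, after TMM scaling, a correction for library composition. They are not corrected for transcript length, so they are compared between libraries and not between genes. The labelled cell type was checked with 10 myeloid markers, all detected in each library, which summed to 5147 and 1463 exonic reads in the DDX6 IP and 5483 in the input. The 8 markers of other blood and tissue types summed to 18 and 4 reads in the DDX6 IP and 16 in the input, nearly all of them from CD3D.

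Among the 10 mRNAs, XRN1 and LSM2 were higher in the DDX6 IP, LSM3, LSM4, LSM5 and PABPC4 were lower, and LSM1, LSM6, LSM7 and PABPC1 did not pass the test. Calls rest on an adjusted p under 0.05 in edgeR's quasi-likelihood test over 10392 genes, of which 16.7% were higher and 11.4% lower. The median log2 fold of DDX6 IP over input was -0.40 over the 10 mRNAs and 0.00 over all tested genes, whose quartiles were -0.54 and 0.60. Only XRN1 kept its call under all 6 alternative treatments of the counts. Folds are relative to the median gene, because scaling to library size alone moved that median up by 1.24 log2. Under that scaling LSM3, LSM4, LSM6, LSM7, PABPC1 and PABPC4 changed sign. There edgeR called 5 of the 10 mRNAs higher and 0 lower, also at an unadjusted p under 0.05, beside 67.3% of all genes higher and 1.36% lower.

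**Figure D1:**
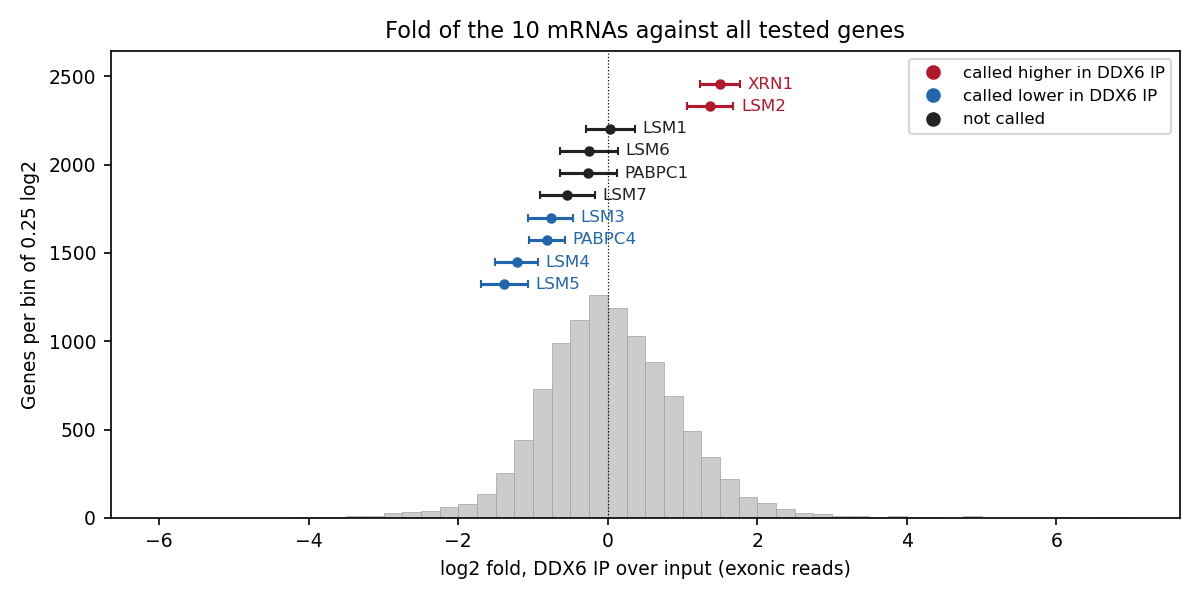
Log2 fold of DDX6 IP over input for the exonic reads of each mRNA (points, with the standard error as bars; red called higher, blue called lower, black not called) above a histogram of the folds of all 10392 tested genes. XRN1 at 1.50 and LSM2 at 1.37 lie to the right of the upper quartile of 0.60, and LSM5 at -1.38 lies farthest to the left.

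LSM2, a subunit shared by the cytoplasmic Lsm1-7 and the nuclear Lsm2-8 ring, was the ring mRNA with the highest fold. It had 300 and 70 exonic reads in the DDX6 IP and 78 in the input. These correspond to 93.7 and 88.3 CPM in the DDX6 IP, a mean of 91.0 ± 3.79 (SD, n = 2), and 35.3 CPM in the input. Both DDX6 IP libraries were above the input, and the distance to it exceeded the gap between them. The fold was 2.59, a log2 fold of 1.37 with a standard error of 0.31 and an edgeR adjusted p of 0.000316, and it stood at percentile 92.8 of all tested genes. With coding reads only, scaled among themselves, the log2 fold was 0.75 and the adjusted p was 0.212.

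The other ring subunits lay on the other side of the median gene or near it. LSM5, also common to both rings, had 31.2 and 24.0 CPM in the DDX6 IP and 75.1 CPM in the input, a log2 fold of -1.38 (SE 0.31, adjusted p 0.000382). LSM4, whose protein carries a C-terminal extension that favours P-body assembly in yeast, had 42.5 and 50.5 CPM in the DDX6 IP and 105.9 CPM in the input, a log2 fold of -1.22 (SE 0.28, adjusted p 0.000526). For both genes each DDX6 IP library lay below the input, and the fitted level was 2.61-fold lower for LSM5 and 2.33-fold lower for LSM4. LSM3 had 45.6 and 40.4 CPM in the DDX6 IP and 74.2 CPM in the input, a log2 fold of -0.76 (SE 0.30, adjusted p 0.0460). That call was made under 0 of the 6 alternatives, whose adjusted p ran between 0.0506 and 0.762.

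LSM1, the subunit that sets the cytoplasmic ring apart from the nuclear one, had 41.5 and 45.4 CPM in the DDX6 IP and 42.1 CPM in the input, so the input lay between the replicates. Its log2 fold was 0.03 (SE 0.33, adjusted p 0.957). LSM6 had 70 and 21 exonic reads in the DDX6 IP and 62 in the input, a log2 fold of -0.26 (SE 0.39, adjusted p 0.665). LSM7 had 74 and 18 reads in the DDX6 IP and 74 in the input, a log2 fold of -0.54 (SE 0.37, adjusted p 0.286). Neither was distinguishable from the median gene at this depth. The 7 ring mRNAs had a median log2 fold of -0.54 and spanned -1.38 to 1.37. Relative to the median gene, mRNAs of subunits that assemble into the same ring thus did not share a direction. With scaling to library size alone, only LSM5 of the ring was below 0, at -0.14 (edgeR adjusted p 0.716). No ring mRNA was called lower there or with DESeq2, beside 1.36% and 3.27% of all genes.

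XRN1, which degrades decapped mRNA, had the highest fold of the 10. It had 1137 and 245 exonic reads in the DDX6 IP and 260 in the input. In CPM these were 355 and 309 in the DDX6 IP, a mean of 332 ± 32.5 (SD, n = 2), and 118 in the input. The fold was 2.84, a log2 fold of 1.50 (SE 0.27, edgeR adjusted p 7.24e-06), at percentile 94.5 of all tested genes. Over the 6 alternatives its log2 fold ran between 1.11 and 2.74, with an adjusted p of at most 0.00480.

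PABPC1, the main cytoplasmic poly(A)-binding protein of most cells, had 15355 and 3178 exonic reads in the DDX6 IP and 11647 in the input. Its level was 4796 and 4010 CPM in the DDX6 IP, a mean of 4403 ± 555 (SD, n = 2), and 5269 CPM in the input. Both DDX6 IP libraries lay below the input, but the gap between them exceeded the distance of replicate 1 to the input, and the log2 fold was -0.26 (SE 0.38, adjusted p 0.656). PABPC4, a paralogue, had 138 and 134 CPM in the DDX6 IP and 239 CPM in the input, a log2 fold of -0.81 (SE 0.24, adjusted p 0.00624). The replicates of PABPC4 lay close together and both below the input. PABPC1 has near-identical copies to which reads can be assigned: 7 of them in the tables held 168 and 68 exonic reads in the DDX6 IP and 78 in the input. PABPC1 changed sign when intronic reads were added, to a log2 fold of 0.65 (adjusted p 0.0280). The 4 lower calls, LSM3, LSM4, LSM5 and PABPC4, were all lost with DESeq2, with adjusted p of 0.376, 0.0771, 0.0798 and 0.126, although 3 of the 4 had an unadjusted p under 0.05.

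**Figure D2:**
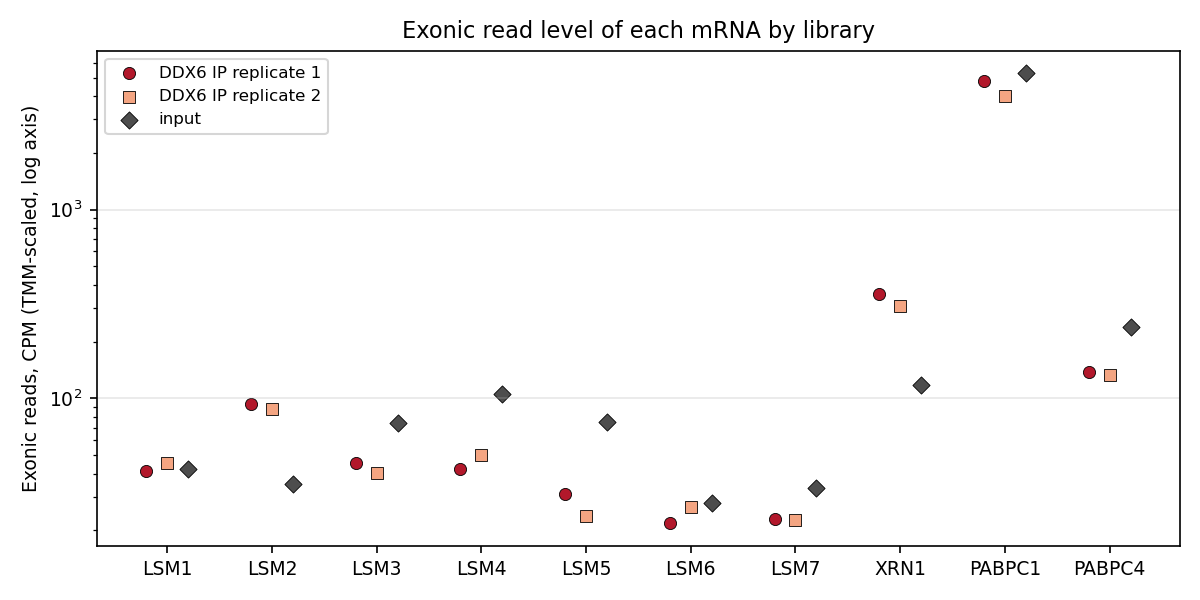
Exonic read level of each mRNA in DDX6 IP replicate 1, DDX6 IP replicate 2 and the input, in TMM-scaled CPM on a log axis. The DDX6 IP points of XRN1 (355 and 309) and LSM2 (93.7 and 88.3) lie above their input points (118 and 35.3), and those of PABPC4 (138 and 134) lie below it (239).

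The first bases of the mRNAs whose levels differed, except PABPC4, are printed below. A run of pyrimidines that starts with C at the cap marks 5' TOP mRNAs, the class to which many translation factor mRNAs belong. The printed letters are the first 20 bases from the RefSeq transcription start on GRCh38.p14, 5' to 3'. The unbroken pyrimidine run at the start is in capitals. The 2 LSM5 starts are numbered by genomic coordinate, and on the minus strand the second lies upstream of the first. RefSeq windows were read for 6 of the 10 genes. None was read for LSM1, LSM6, PABPC1 or PABPC4, so whether those mRNAs begin with such a run was not tested.
LSM2, chr6:31806947-31806966, minus strand, higher in the DDX6 IP: CTCCCCTCTactctacccag
XRN1, chr3:142448018-142448037, minus strand, higher: atccgcggagcgacgaccgg
LSM3, chr3:14178817-14178836, plus strand, lower: CTTgtgttctcgcgagaggc
LSM4, chr19:18323057-18323076, minus strand, lower: agcgtgtgcagcggcggcgg
LSM5, chr7:32490361-32490380, minus strand, lower, first of 2 starts: acttccggcgtagccatggc
LSM5, chr7:32495264-32495283, minus strand, second start: acgtgacccgggcggctggg
LSM2 alone of the printed mRNAs begins with C and at least 4 further pyrimidines, in a run of 9. XRN1, the other mRNA higher in the DDX6 IP, begins with A. A start with C and at least 4 further pyrimidines, read on the transcribed strand only, was found in 4.07% of 35116 RefSeq start windows, and a run of 9 or more from C in 1.07%. The match describes these letters and not the start used in MOLM-13 cells.

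Within the transcripts, coding and 3'UTR reads of LSM2 and XRN1 were higher in the DDX6 IP, 3'UTR reads of LSM4, LSM5, LSM7, PABPC1 and PABPC4 were lower, and introns were lower in every member tested. These folds come from 1 edgeR fit over 28825 gene regions, exonic and intronic together, so they are on another scale than the gene folds above. Coding regions were higher for 2 of 10 mRNAs and lower for 0, also at an unadjusted p under 0.05. Over all genes 51.2% of coding regions were higher and 0.208% lower, and the median log2 fold was 0.69 for the 10 and 1.02 for all. XRN1 coding sequence had 527 and 114 reads in the DDX6 IP and 115 in the input, a log2 fold of 2.17 (SE 0.36, adjusted p 8.04e-09). LSM2 coding sequence had 102 and 25 reads in the DDX6 IP and 31 in the input, a log2 fold of 1.77 (SE 0.45, adjusted p 0.000214). PABPC1 coding sequence, with 11549 and 2536 reads in the DDX6 IP and 6686 in the input, had a log2 fold of 0.76 (SE 0.42, adjusted p 0.113), and DESeq2 called it higher with an adjusted p of 0.0441. PABPC4 coding sequence had a log2 fold of -0.02 (SE 0.32), below the median of all coding regions.

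In the 3'UTR, where many regulatory proteins and microRNAs bind, 2 of 10 were higher and 5 lower, against 23.9% higher and 6.83% lower over all genes. The median log2 fold was -0.81 for the 10 and 0.28 for all 3'UTRs. LSM2 had 167 and 40 reads there in the DDX6 IP and 25 in the input, a log2 fold of 2.78 (SE 0.44, adjusted p 3.52e-09), or 6.85-fold. XRN1 had 603 and 131 reads in the DDX6 IP and 142 in the input, a log2 fold of 2.06 (SE 0.35, adjusted p 3.07e-08). Taken alone, DDX6 IP replicates 1 and 2 gave log2 folds of 2.70 and 2.59 for LSM2 and of 2.16 and 1.90 for XRN1.

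PABPC1 3'UTR had 1620 and 187 reads in the DDX6 IP and 2527 in the input, a log2 fold of -1.001 (SE 0.34, adjusted p 0.00641). The replicates differed in size, with a log2 fold of -0.55 in DDX6 IP replicate 1 alone and -1.72 in replicate 2 alone. The adjusted p rests on a spread pooled over all regions and does not measure this gap. PABPC4 3'UTR had 47 and 9 reads in the DDX6 IP and 105 in the input, a log2 fold of -1.19 (SE 0.41, adjusted p 0.00851). LSM4 and LSM5 had log2 folds of -0.86 (SE 0.36, adjusted p 0.0345) and -0.89 (SE 0.39, adjusted p 0.0415). LSM7 had 12 and 0 reads in the DDX6 IP and 29 in the input, a log2 fold of -1.61 (SE 0.71, adjusted p 0.0413), with -1.03 in replicate 1 and -3.53 in replicate 2, where the count was 0. DESeq2 gave an adjusted p for 9 of the 10 3'UTRs, LSM7 being without, and called 0 of them lower. At an unadjusted p under 0.05, which it gave for all 10, 0 were lower.

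**Figure D3:**
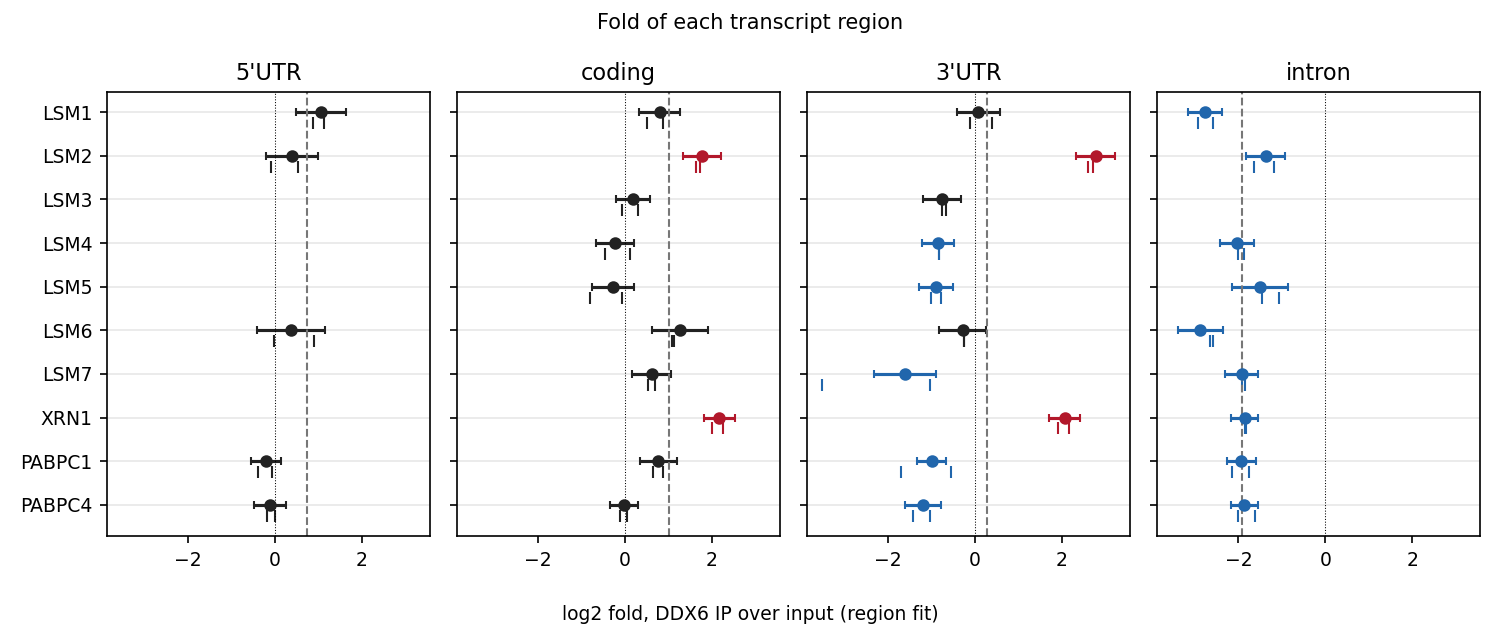
Log2 fold of DDX6 IP over input for the 5'UTR, coding sequence, 3'UTR and introns of each mRNA (points, with the standard error as bars; ticks under a point are the 2 DDX6 IP libraries; red called higher, blue called lower). Dashed lines mark the median of all tested regions of that kind, 0.74, 1.02, 0.28 and -1.93, and LSM2 and XRN1 lie to the right of the line in both coding sequence and 3'UTR.

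The 5'UTR had enough reads in 5 of the 10, of which 0 passed edgeR's test in either direction, also at an unadjusted p under 0.05, against 33.2% higher and 4.49% lower over all genes. DESeq2 gave an adjusted p for 3 of the 5 and called 0, and 0 of the 5 had an unadjusted p under 0.05. Its log2 fold ran between -0.21 for PABPC1, with 2186 and 455 reads in the DDX6 IP and 2434 in the input, and 1.06 for LSM1, with 35 and 11 reads in the DDX6 IP and 19 in the input. Introns were lower in 9 of 9 mRNAs tested, and 0 were higher, also at an unadjusted p under 0.05. DESeq2 gave an adjusted p for 8 of the 9 and called 7 lower and 0 higher. Over all genes edgeR called 83% of introns lower and 2.57% higher, so its count is near the background. The share that DESeq2 called over all introns, 3'UTRs or 5'UTRs was not computed. Their log2 folds ran between -2.87 for LSM6 and -1.37 for LSM2, with a median of -1.92 beside -1.93 for all introns. LSM3 introns held 7 and 3 reads in the DDX6 IP and 93 in the input and were not tested.

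Intronic reads, which come from unspliced or nuclear RNA, were 12.9% and 14.9% of the XRN1 reads in the DDX6 IP and 71.1% in the input. For PABPC1 they were 5.54% and 5.30% in the DDX6 IP and 21.8% in the input. The 7 ring mRNAs together had 16.2% and 16.6% in the DDX6 IP and 50.8% in the input, and all genes together 27.6% and 31.3% in the DDX6 IP and 68.1% in the input. The difference between XRN1 in the DDX6 IP and in the input exceeded the exact Clopper-Pearson intervals at 95%, 11.1% to 14.8% and 11.02% to 19.6% in the DDX6 IP and 68.1% to 74.1% in the input. Intervals cover counting error only.

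How exonic reads divided between coding sequence and 3'UTR differed between the mRNAs. Coding sequence held 75.2% (74.5% to 75.9%) and 79.8% (78.4% to 81.2%) of PABPC1 exonic reads in the DDX6 IP and 57.4% (56.5% to 58.3%) in the input, and the 3'UTR 10.6% and 5.88% in the DDX6 IP and 21.7% in the input. LSM2 moved the other way, with 55.7% (49.8% to 61.4%) and 57.1% (44.7% to 68.9%) in the 3'UTR in the DDX6 IP and 32.1% (21.9% to 43.6%) in the input. XRN1 barely moved, with 46.4% and 46.5% in coding sequence in the DDX6 IP and 44.2% in the input. For all genes together, coding sequence held 51.3% and 51.2% of exonic reads in the DDX6 IP and 32.7% in the input. A higher coding share in the DDX6 IP was therefore not particular to PABPC1. The 3'UTR share of all genes was 33.3% and 29.5% in the DDX6 IP and 33.5% in the input.

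On the log2 scale, the fold of the coding sequence minus that of the 3'UTR, a difference that does not depend on scaling, was positive in both DDX6 IP libraries for 9 of the 10. Over all genes a related but different measure was taken, the fitted coding fold minus the fitted 3'UTR fold, with 1 value per gene. That measure was positive in 86.8% of 6552 genes with both regions tested, with a median of 0.83. For the 10, the mean of the 2 single-library differences had a median of 0.76. The exception was LSM2, with -0.98 and -0.94 in DDX6 IP replicates 1 and 2. PABPC1 had 1.43 and 2.36, PABPC4 1.10 and 1.34, and XRN1 0.10 and 0.10.

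**Figure D4:**
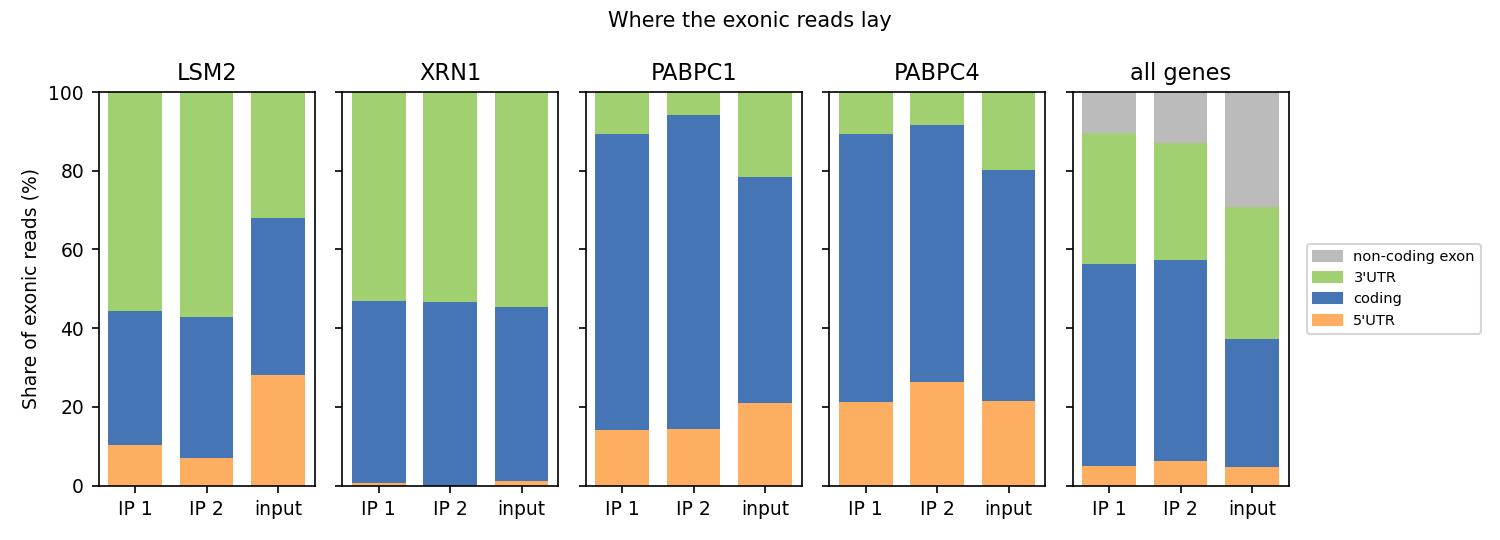
Share of exonic reads in the 5'UTR, coding sequence, 3'UTR and non-coding exons, in DDX6 IP replicate 1, DDX6 IP replicate 2 and the input, for LSM2, XRN1, PABPC1, PABPC4 and all genes together. The 3'UTR share of LSM2 is 55.7% and 57.1% in the DDX6 IP and 32.1% in the input, whereas that of PABPC1 is 10.6% and 5.88% in the DDX6 IP and 21.7% in the input.

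The authors' peak lists give each peak a -log10 p and a log2 fold against the input, which are the authors' own values. They held 173 lines for the 10 mRNAs in DDX6 IP replicate 1 and 103 in replicate 2. Of these, 10 in replicate 1 and 9 in replicate 2 had both values at 3 or above, as did 11.5% and 12.9% of all lines in the 2 lists. XRN1 had 8 in each list, LSM2 1 in each, LSM6 1 in replicate 1, and the other 7 mRNAs 0. The passing peaks of XRN1 lay in coding sequence (5 in replicate 1 and 4 in replicate 2) and 3'UTR (3 and 4).

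The LSM2 peak, in the 3'UTR on the minus strand, was the only peak of the 10 mRNAs in the authors' list of 1587 reproducible peaks. In that list it lay at hg19 chr6:31765190-31765296, with a log2 fold of 3.35 and a -log10 p of 17.3. Replicate 1 had a peak with the same ends, with a log2 fold of 3.44 and a -log10 p of 35.0, and replicate 2 had chr6:31765224-31765353, with a log2 fold of 3.31 and a -log10 p of 23.8. All LSM2 lines also name lncRNA identifiers. Of all lines of the 10 mRNAs, 98 of 173 in replicate 1 and 66 of 103 in replicate 2 name at least 1 further identifier, nearly always a lncRNA. Such a name need not be that of a local transcript. LENG8-AS1 is named on lines of both LSM4, from chr19:18417743, and LSM7, from chr19:2321714. Which transcript gave the reads was not tested. The peak lies in the region whose read count stood highest relative to the input among the 10.

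The XRN1 peaks past the thresholds were compared between the 2 lists. Of its 8 in each list, 2 overlapped by at least 1 base on the same strand between the lists, both in the 3'UTR, at chr3:142026914-142026945 with chr3:142026884-142026926 and at chr3:142027237-142027272 with chr3:142027249-142027270 (replicate 1 first). The peak with the highest fold was chr3:142028570-142028702 in the 3'UTR in replicate 1, with a log2 fold of 4.50 and a -log10 p of 16.9, and chr3:142051898-142051932 in coding sequence in replicate 2, with a log2 fold of 5.23 and a -log10 p of 4.37. Overlap depended on the thresholds: chr3:142028754-142028792 in replicate 2 (log2 fold 4.23) passed, but the replicate 1 line over it (2.59) did not. Among all XRN1 lines, passing or not, 9 of 27 in replicate 1 and 9 of 26 in replicate 2 overlapped a line of the other list. The overlapping share over all genes was not computed. No XRN1 peak was in the reproducible list.

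PABPC1 had 76 lines in replicate 1 and 34 in replicate 2, which merged into 26 and 20 sites, and 0 passed. Its highest log2 folds were 2.49 and 2.42, below the threshold of 3, although 28 lines in replicate 1 and 2 in replicate 2 stood at the listed maximum of 400 for -log10 p. With the fold threshold at 1, 66 of its lines in replicate 1 and 18 in replicate 2 passed. PABPC4 had 23 and 13 lines and 0 passed, with highest log2 folds of 2.18 and 2.49. The lines of LSM5 had a median log2 fold of -0.18 in replicate 1 and 0.32 in replicate 2 and those of LSM4 0.52 and 0.29, against 1.77 and 2.29 over all lines of those lists. LSM6, with 1 passing coding peak at chr4:147104064-147104093 (log2 fold 3.13, -log10 p 3.96) in replicate 1, had an overlapping line below the threshold in replicate 2.

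**Figure D5:**
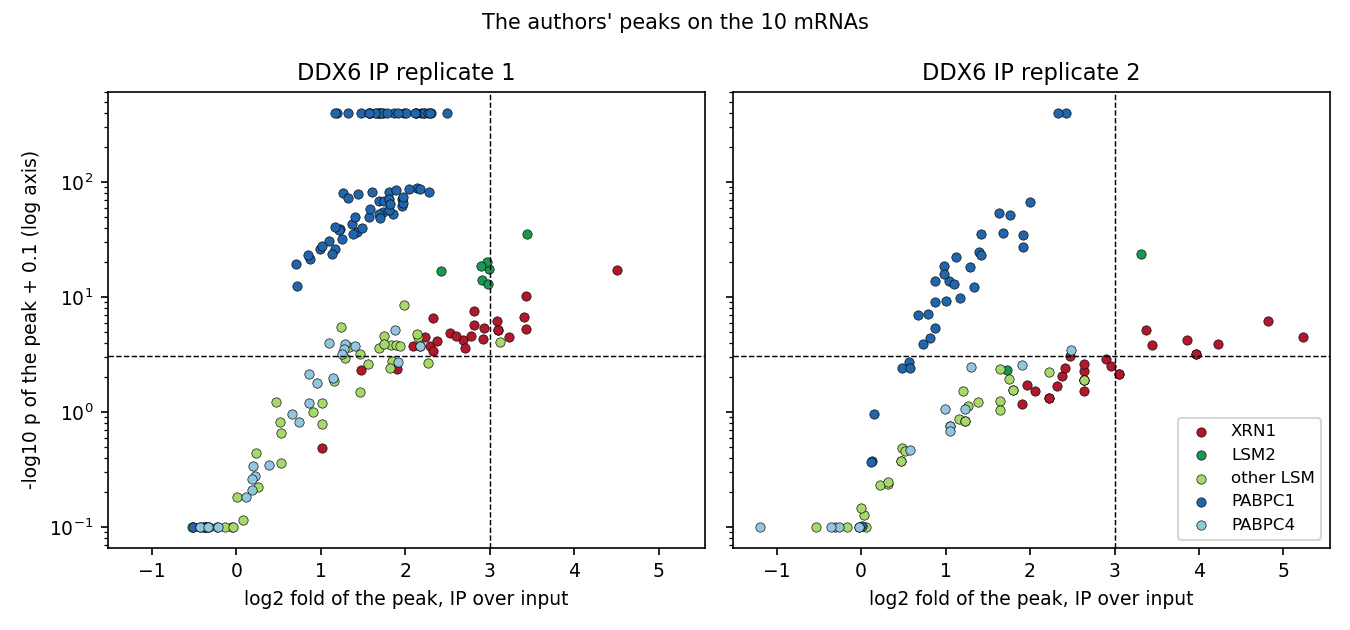
Log2 fold of IP over input of each annotated peak line of the 10 mRNAs (horizontal) against its -log10 p plus 0.1 (vertical, log axis), as the authors list them, in DDX6 IP replicates 1 and 2, with dashed lines at the threshold of 3. XRN1 has 8 points past both thresholds in each panel and LSM2 has 1, while the points of PABPC1 reach the listed maximum of 400 at log2 folds under 3.

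Other genes of these pathways were read from the same gene fit. The background for each list is all genes, of which edgeR called 16.7% higher and 11.4% lower. DESeq2 called 8.72% higher and 3.27% lower among the genes to which it gave an adjusted p. The share of all genes at an unadjusted p was not computed, so counts at that level have no background. The list of other Lsm and Sm genes is not made of ring subunits only, since it includes LSM12, LSM14A, LSM14B and NAA38. Of its 15 genes 14 were tested, 0 were higher and 3 lower, with a median log2 fold of -0.35. At an unadjusted p under 0.05 edgeR had 0 higher and 5 lower. An adjusted p from DESeq2 was given for 11 of the 14, and it called 0 in either direction, with 0 higher and 1 lower at an unadjusted p under 0.05. LSM8, which replaces LSM1 in the nuclear ring, had 278 and 49 exonic reads in the DDX6 IP and 371 in the input, a log2 fold of -1.12 (SE 0.25, adjusted p 0.000324). LSM12 had 18 and 2 reads in the DDX6 IP and 36 in the input, a log2 fold of -1.76 (SE 0.58, adjusted p 0.0162). SNRPB, a core Sm protein of spliceosomal particles, named after its value was seen, was the other lower gene, with a log2 fold of -0.72 (SE 0.25, adjusted p 0.0246).

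Of 13 genes listed for decapping and 5' to 3' decay, NOCT among them, 12 were tested. Of these 3 were higher and 0 lower, beside 16.7% and 11.4% of all genes, with a median log2 fold of 0.32. At an unadjusted p under 0.05 edgeR had 5 higher and 0 lower. DESeq2 gave an adjusted p for 9 of the 12 and called 2 higher and 0 lower, with 3 and 0 at an unadjusted p under 0.05. NOCT, a dinucleotide cofactor phosphatase related to deadenylases, had 292 and 80 exonic reads in the DDX6 IP and 61 in the input, a log2 fold of 1.79 (SE 0.32, adjusted p 8.21e-06). DCP1B, an activator of decapping, had 102 and 24 reads in the DDX6 IP and 15 in the input, a log2 fold of 2.19 (SE 0.48, adjusted p 0.000253). The nuclear exonuclease XRN2, named after its value was seen, was the other higher gene, with a log2 fold of 0.79 (SE 0.25, adjusted p 0.0124). DDX6 mRNA itself had 1829 and 356 reads in the DDX6 IP and 744 in the input, a log2 fold of 0.61 (SE 0.28, adjusted p 0.0945).

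For poly(A) tail binding and its partners, 11 of 15 were tested. Of these 1 was higher and 2 lower, beside 16.7% and 11.4% of all genes, with a median log2 fold of -0.04. At an unadjusted p under 0.05 edgeR had 3 higher and 3 lower. DESeq2 gave an adjusted p for 10 of the 11 and called 0 in either direction, with 1 higher and 2 lower at an unadjusted p under 0.05. LARP4, which binds poly(A) and PABPC1, had a log2 fold of 0.80 (SE 0.25, adjusted p 0.0104). PABPC1L, an oocyte paralogue, had 19 and 4 reads in the DDX6 IP and 59 in the input (log2 fold -2.22, SE 0.50, adjusted p 0.000331), and PABPN1, the nuclear poly(A)-binding protein, had a log2 fold of -1.22 (SE 0.29, adjusted p 0.000675). Of 15 exosome and SKI subunits, all tested, DIS3, the exosome's catalytic ribonuclease, was higher with a log2 fold of 0.92 (SE 0.25, adjusted p 0.00367) and 0 were lower, with a median of 0.04. At an unadjusted p under 0.05 edgeR had 2 higher and 1 lower there. For 11 of the 15 DESeq2 gave an adjusted p, and it called 0 in either direction, with 1 higher and 0 lower at an unadjusted p under 0.05.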

How the data were processed

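The read counts that the authors deposited give, for each library, whole numbers per gene and part of the transcript. For each IP they also deposited a list of peaks with a -log10 p (largest listed value 400) and a log2 fold against the input, and for the pair of IPs a list of reproducible peaks with the same measures. How replicates were combined in it is not given in the sources used here, nor are the counter, the annotation, the peak caller or the use of strand. UMI-tools, cutadapt, STAR, SAMtools and build hg19 are named, per the submitters' processing notes.

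Exonic reads (coding, UTR, non-coding exon) were summed by gene. A gene entered the test if 2 of the 3 libraries or more had 10 reads or more. The test was edgeR 4.0.16 in R 4.3.3 (TMM, glmQLFit, glmQLFTest), with Benjamini-Hochberg adjustment over all genes. A single further fit took the coding, 5'UTR, 3'UTR, summed intron, non-coding exon and summed non-coding intron reads of every gene as separate features. Lines of totals and intergenic reads (4.05% and 3.78% in the IP, 2.63% in the input) were left out. The input is a single library. The spread was therefore estimated from the 2 IP libraries (1 residual degree of freedom) and taken to hold for the input too. edgeR pooled the spread over all features, with 75.85 prior degrees of freedom in the gene fit and an infinite number in the region fit. The p-values thus rest mainly on the pooled spread and say little about how closely the 2 IP values of a single feature lie. The common dispersion was 0.0272 in the gene fit, a coefficient of variation of 16.5%, and 0.0356 in the region fit. Folds of single libraries used a prior count of 2. Shares have Clopper-Pearson intervals at 95%. Alternatives were library-size scaling, DESeq2 1.42.0, other read filters, introns included, coding reads only, other peak thresholds and each IP left out.

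All 10 members were named, with DDX6, LSM8 and up to 2 called genes of each direction per pathway list, those with the smallest p. The members, lists and tests were chosen with earlier results of these data known. DCP1A, PABPC4L and EIF4G1, members of the lists, were not analysed here.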

Additional observations from a re-analysis of the deposited data

How the results depend on the processing

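No paired analysis was possible because the input carries no replicate number that ties it to either DDX6 IP library. With scaling to library size alone, 5 of the 10 mRNAs were higher and 0 lower by edgeR (67.3% and 1.36% of all genes), and log2 folds changed sign for LSM3 (0.48), LSM4 (0.0204), LSM6 (0.98), LSM7 (0.70), PABPC1 (0.97) and PABPC4 (0.42). That scaling uses all counted reads of a library, intronic and intergenic included, and moves all genes up together. The number called lower was 0 with DESeq2 (3 at an unadjusted p under 0.05), 2 with no read filter and 0 with introns included (also 0 at an unadjusted p), beside 3.27%, 3.58% and 18.6% of all genes. With introns included PABPC1 had a log2 fold of 0.65. Coding reads alone left 1 mRNA called higher (11.8% of all genes). They kept 3 of the lower calls, LSM4, LSM5 and PABPC4 (6.57% of all genes). Raising the gene filter to 30 reads kept the same 3 lower calls (10.7% of all genes). Among 34 member regions, library-size scaling gave 9 higher and 7 lower (40.3% and 24.1% of all regions), and DESeq2, with an adjusted p for 29 of them, 7 lower (25.2% of all). A minimum of 30 reads gave 9 lower (36.4% of all): of the 14 lower regions 3 were not tested and 2 were tested and not called. The cause of the changes was not tested. Peaks past the thresholds numbered 117 in DDX6 IP replicate 1 and 29 in replicate 2 with a log2 fold of at least 1 (34.3% and 23.9% of all lines), and 3 and 1 with a -log10 p of at least 8 (5.71% and 2.41% of all lines). The median difference between coding and 3'UTR folds was 0.79 without DDX6 IP replicate 1, 1.04 without replicate 2 and 0.77 with a prior count of 0.5. Leaving out an IP library leaves 1 against 1, a value with no test. The depth of DDX6 IP replicate 2 limits the ring mRNAs most, since LSM5, LSM6 and LSM7 had 19, 21 and 18 exonic reads in it.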
